A study of Mus musculus with 12 samples.

Results

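The oxidative phosphorylation subunit genes are the nuclear genes for the 5 enzyme complexes of the mitochondrial inner membrane. They were taken here as the transcript clusters, the gene-level rows of the expression array, that carry a single symbol of the *Nduf*, *Sdh*, *Uqcr*, *Cyc1*, *Cox4* to *Cox8* or *Atp5* series. The pattern matched 90 such rows for 81 genes, among 22180 genes with 1 symbol and 41345 transcript clusters in all, and a gene with several rows was read from the row with the highest mean over the 12 arrays. By symbol, 33 genes belonged to complex I, 4 to complex II, 9 to complex III, 17 to complex IV and 18 to complex V, and 2 of the 81 were pseudogenes (*Uqcrh-ps1* and *Atp5c1-ps*). A further 10 matching rows carried several symbols, so *Ndufb2*, *Ndufb4*, *Ndufs6*, *Uqcr10* and *Cox6c* were not analysed here, and the subunits encoded by mitochondrial DNA were not analysed here either.

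The study profiled CD4+YFP+ regulatory T (Treg) cells, sorted from mouse lymph nodes and spleen, in which a YFP-Cre fusion expressed from the X-linked *Foxp3* locus deletes floxed genes in Treg cells. There were 3 arrays for each of 4 genotype labels: Foxp3Cre/+Lkb1f/f and its control Foxp3Cre/+, both labelled female, and Foxp3CreTgfbr2 f/f and its control Foxp3Cre, both labelled male. Lkb1, encoded by *Stk11*, is a kinase that activates the energy sensor AMPK, and *Tgfbr2* encodes a receptor for TGF-β. All 12 samples carried the Foxp3-driven Cre, and no agent was given to the mice according to the labels. In Foxp3Cre/+ females only the Treg cells that use the Cre-bearing X chromosome are YFP+, so the sorted cells shared the animal with Treg cells that had kept intact alleles. The sources used here give neither the ages of these mice nor whether a sample was 1 animal or a pool, so p-values measure the spread between the samples labelled as biological replicates.

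The complexes work in series. Complex I oxidises NADH and complex II oxidises succinate, both passing electrons to ubiquinone. Complex III then passes electrons to cytochrome c, complex IV passes them to oxygen, and complex V uses the proton gradient built up by complexes I, III and IV to make ATP. Resting Treg cells are known for their reliance on mitochondrial oxidation of fuels, and transcription of the nuclear subunit genes in mammals is known to draw on NRF1, the ETS factor GABP, YY1 and the oestrogen-related receptor ERRα.

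Promoter motifs, which the selection of members did not use, were counted without a test. RefSeq promoter windows, each 300 bases across a start site and mostly upstream of it (GRCm38.p6), were matched for 64 of the 81 genes (69 windows), and each was searched on both strands for an NRF1 core (GCGCATGC), an ETS core (CCGGAAG), a YY1 site (AAGATGGC) and an ERRα site (TCAAGGTCA). At least 1 of the 4 was present in 31 of 69 member windows (44.9%), against 29.6% of windows of genes lying 2 or more log2 units above the array median and 13.7% of all windows. The NRF1 core was in 14.5% of member windows, against 6.22% and 2.71%. The YY1 site was in 13% of member windows, against 5.44% and 2.75%. The ETS core was in 24.6% of member windows, against 20.8% and 8.86%. The ERRα site was in only 2 of 69 member windows (2.9%), against 12 of 4820 (0.249%) and 139 of 32851 (0.423%). The YY1 site was in 6 of 31 windows of complex I and 3 of 18 of complex V, and in 0 of the 3, 4 and 13 windows of complexes II, III and IV. A match is only a run of letters, and no binding was measured.

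One window per complex is shown, chosen to hold each of the motifs, with every match in capitals and overlapping matches joined in 1 run. The *Ndufs4* window (chr13:114388045-114388344 on the minus strand) held the YY1 site, and the *Sdhd* window (chr9:50603800-50604099 on the minus strand) the ETS core and the ERRα site. The *Uqcrc1* window (chr9:108936398-108936697 on the plus strand) held the NRF1 core on both strands. The *Cox6a1* window (chr5:115348909-115349208 on the minus strand) held the NRF1 core on both strands and the ETS core. The *Atp5l* window (chr9:44920693-44920992 on the minus strand) held the NRF1 core and the ETS core at 2 places.
Ndufs4: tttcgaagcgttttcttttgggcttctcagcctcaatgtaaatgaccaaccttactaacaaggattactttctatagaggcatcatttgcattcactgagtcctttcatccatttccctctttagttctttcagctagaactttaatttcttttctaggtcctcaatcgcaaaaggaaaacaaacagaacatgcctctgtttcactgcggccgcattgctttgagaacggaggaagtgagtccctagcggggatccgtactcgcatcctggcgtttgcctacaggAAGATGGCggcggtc
Sdhd: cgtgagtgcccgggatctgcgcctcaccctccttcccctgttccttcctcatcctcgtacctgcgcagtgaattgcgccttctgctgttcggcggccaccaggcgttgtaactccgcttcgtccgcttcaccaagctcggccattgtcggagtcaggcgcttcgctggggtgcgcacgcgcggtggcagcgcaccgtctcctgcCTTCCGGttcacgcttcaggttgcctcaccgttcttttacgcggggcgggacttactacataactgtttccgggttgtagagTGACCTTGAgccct
Uqcrc1: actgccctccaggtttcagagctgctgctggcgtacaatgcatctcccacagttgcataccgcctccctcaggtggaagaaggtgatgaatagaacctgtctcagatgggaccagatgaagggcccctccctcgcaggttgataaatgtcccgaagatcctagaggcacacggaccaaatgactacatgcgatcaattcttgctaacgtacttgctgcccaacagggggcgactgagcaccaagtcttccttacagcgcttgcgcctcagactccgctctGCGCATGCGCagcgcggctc
Cox6a1: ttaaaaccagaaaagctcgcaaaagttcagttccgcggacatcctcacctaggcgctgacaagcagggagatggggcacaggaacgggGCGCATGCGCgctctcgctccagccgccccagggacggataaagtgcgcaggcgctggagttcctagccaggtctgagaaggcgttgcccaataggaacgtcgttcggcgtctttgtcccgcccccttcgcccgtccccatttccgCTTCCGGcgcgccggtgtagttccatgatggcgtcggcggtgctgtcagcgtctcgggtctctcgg
Atp5l: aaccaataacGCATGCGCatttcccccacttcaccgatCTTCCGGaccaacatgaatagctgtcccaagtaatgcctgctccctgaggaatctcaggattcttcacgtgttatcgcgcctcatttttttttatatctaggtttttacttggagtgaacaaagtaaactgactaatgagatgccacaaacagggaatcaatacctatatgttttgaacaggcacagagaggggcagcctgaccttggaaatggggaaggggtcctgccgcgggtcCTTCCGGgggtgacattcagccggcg

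The arrays themselves fell into 2 intensity sets that cut across the genotypes. Each genotype had 1 array with a median log2 value of 6.30 to 6.33 and 2 with medians of 5.48 to 5.60. All values below are therefore distances from the array's own median on the log2 scale. The 4 higher-intensity arrays went against their labels. *Xist*, an RNA made from the silenced X of female cells, was at -1.24 and -0.999 on the higher-intensity arrays labelled Foxp3Cre/+Lkb1f/f and Foxp3Cre/+, both labelled female, against 4.37 to 5.20 on the other 4 arrays of these labels. On the higher-intensity arrays labelled Foxp3CreTgfbr2 f/f and Foxp3Cre, both labelled male, *Xist* was at 4.70 and 4.54, against -0.93 to -0.40 on the others. The Y-linked gene *Eif2s3y* ran the opposite way on every array.

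The targeted genes showed the same division, although which part of each gene its row reads is not known here. *Stk11* was at 2.68 and 2.33 on the lower-intensity arrays labelled Foxp3Cre/+Lkb1f/f, against 2.96 and 2.90 on those labelled Foxp3Cre/+. On the higher-intensity arrays it was at 3.27 for Foxp3Cre/+Lkb1f/f and 3.15 for Foxp3Cre/+, and the lowest value of the 4, 2.78, was on the array labelled Foxp3CreTgfbr2 f/f. *Tgfbr2* was at 2.51 and 2.31 on the lower-intensity arrays labelled Foxp3CreTgfbr2 f/f, against 3.04 and 2.71 on those labelled Foxp3Cre. On the higher-intensity arrays it was at 3.55 for Foxp3CreTgfbr2 f/f and 3.48 for Foxp3Cre, and the lowest value of the 4, 2.71, was on the array labelled Foxp3Cre/+Lkb1f/f. Genotype names below are those of the labels, and the medians over all members and over the gene lists are also given for the lower-intensity arrays alone, where the sex-linked genes matched the labels. *Foxp3*, the defining Treg cell factor, lay 5.59 to 5.88 above the array median on all 12 arrays.

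**Figure D1:**
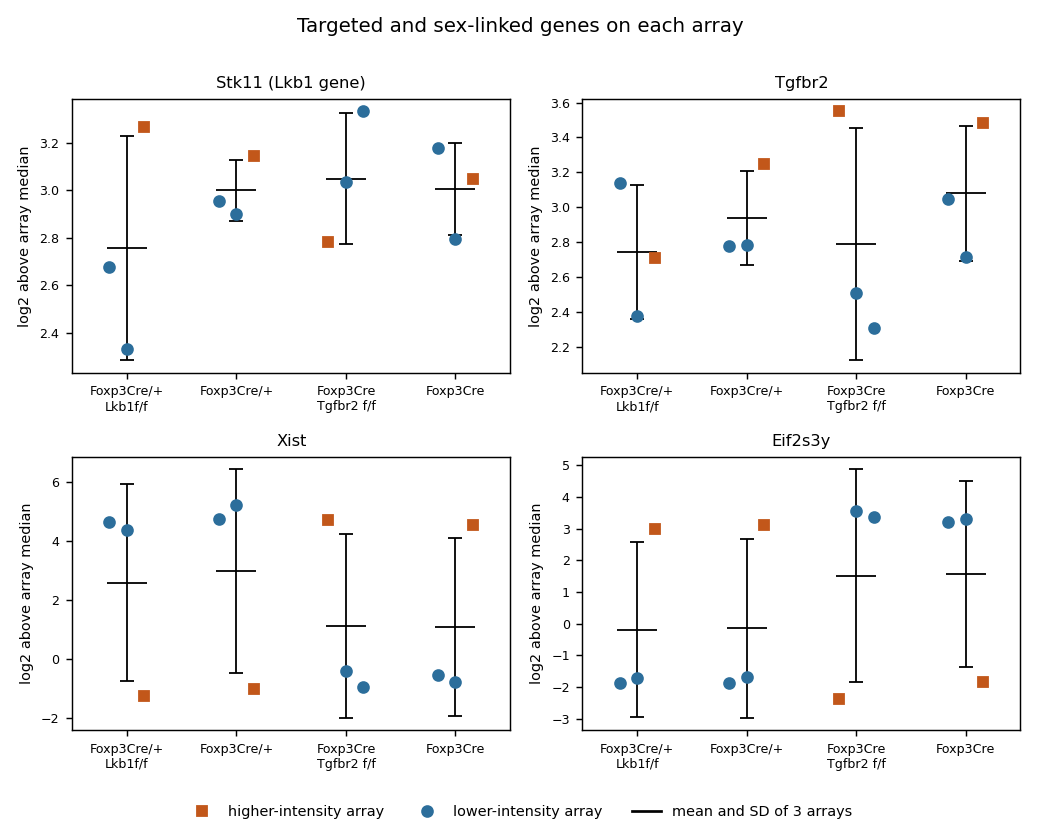
Distance from the array median (log2) of *Stk11*, *Tgfbr2*, *Xist* and *Eif2s3y* on each of the 12 arrays, by genotype label, with the mean and SD of 3 arrays. The square in each genotype is its higher-intensity array, and for *Xist* and *Eif2s3y* it lies on the opposite side from the 2 circles in all 4 genotypes.

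The members varied less between arrays than most transcripts. The SD between arrays of 1 genotype had a median of 0.14 over the 81 members, against 0.28 over all transcript clusters, 0.29 over those lying 2 or more above the array median, 0.17 over 71 mitochondrial ribosomal protein genes and 0.21 over 68 cytosolic ribosomal protein genes. It ran from 0.061 for *Sdhb* to 0.54 for *Cox6b2*. Of the 81, 70 lay above the array median on all 12 arrays. The 8 that lay below it on all 12 were both pseudogenes, *Cox7b2*, *Cox8b*, *Cox8c*, *Ndufa4l2*, *Ndufs5* and *Atp5j2*.

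No member was called in Foxp3Cre/+Lkb1f/f Treg cells by limma at a Benjamini-Hochberg adjusted p under 0.05. Of the 81 members, 56 (69.1%) had a lower mean than in Foxp3Cre/+ cells and 25 a higher one. Lower means held for 53.1% of all transcript clusters and 68.5% of those lying 2 or more above the array median. The median difference over the members was -0.04 (log2), against -0.01 over all transcript clusters and -0.06 over those lying 2 or more above the array median. By complex the median difference was -0.04 for complex I, -0.12 for complex II, -0.05 for complex III, -0.01 for complex IV and -0.03 for complex V. The calls covered 0 of 81 members and 0% of all transcript clusters. At an unadjusted p under 0.05 they covered 0 of 81 members and 1.12% of all transcript clusters. None of the 81 differed by 1.5-fold or more, against 2.2% of all transcript clusters that were lower by that much and 1.53% that were higher.

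The fit that gave these intervals had no intensity term. The median half-width of the 95% confidence interval was 0.42 over the members, and for 58 of 81 the whole interval lay inside a 1.5-fold change in either direction. A fit blocked by intensity set gave a smaller SE for every member, such as *Sdha* (0.12, against 0.26 without it) and *Ndufb3* (0.22, against 0.23). The half-width and the count above therefore come from the less precise fit. The 1 member whose arrays did not overlap was *Ndufb6*, an accessory subunit of the membrane arm of complex I, named here after its values were seen. It was at 2.57, 2.57 and 2.38 in Foxp3Cre/+Lkb1f/f cells, against 2.81, 2.59 and 2.58 in Foxp3Cre/+ cells. Non-overlap in this direction held for 2.05% of all transcript clusters, and in the other direction for 1.76% of them and for 0 members. Over 16 macrophage and monocyte markers the arrays labelled Foxp3Cre/+Lkb1f/f averaged 0.94, 1.27 and 0.48, against 1.27, 3.23 and 0.39 on those labelled Foxp3Cre/+. The value of 3.23 was that of 1 array. Over 9 B cell markers they averaged -0.64, -0.59 and 0.78, against -0.46, -0.28 and 1.57. The part of these other cells in the result was not tested, and in such bulk samples fewer cells of a type cannot be told apart from less RNA per cell.

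The direction of the median depended on the scaling. It was -0.03 within the lower-intensity arrays, with 53 of 81 members lower, and between the higher-intensity pair it was -0.06 with 59 lower. After quantile normalization it was 0.01 with 35 of 81 members lower, and on the deposited values without centring it was -0.002 with 44 lower.

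**Figure D2:**
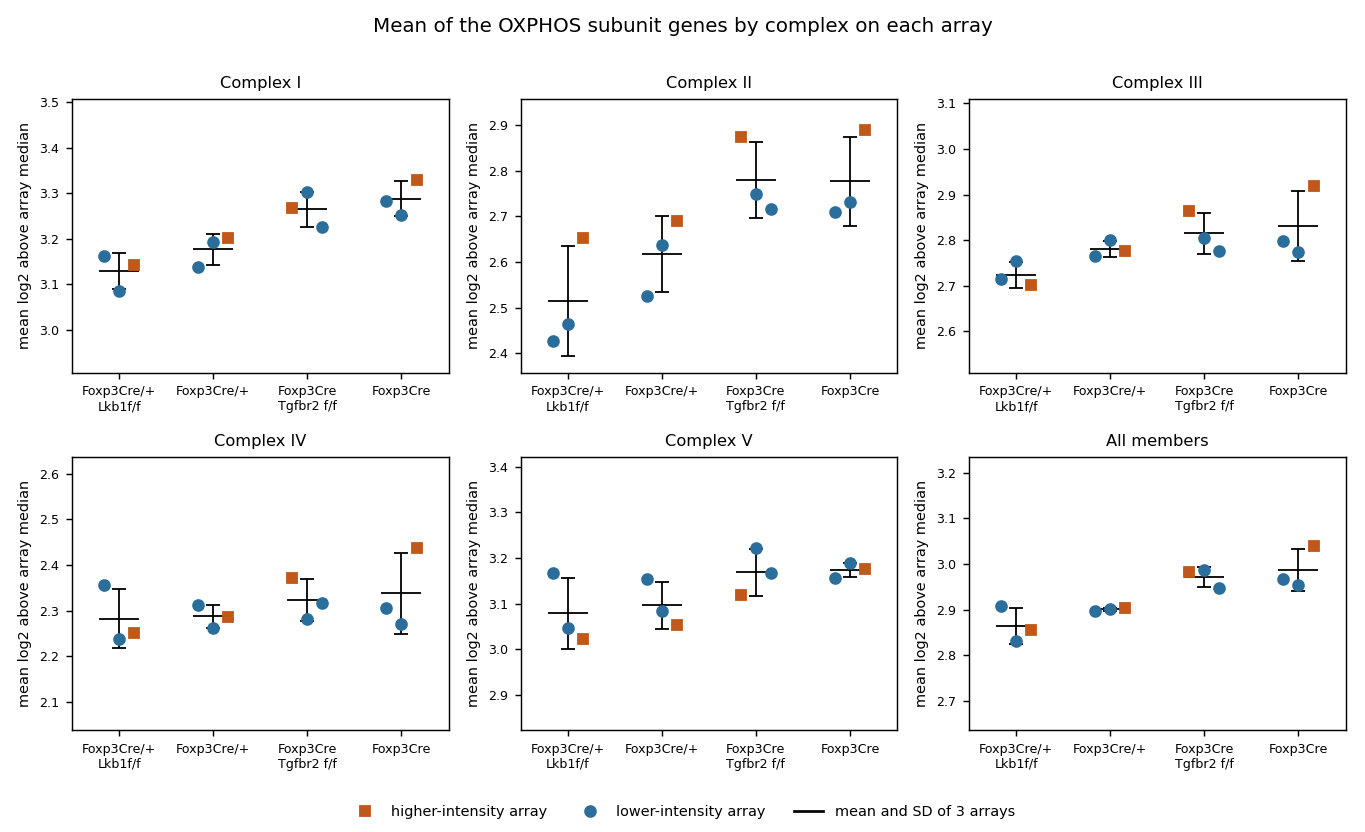
Mean distance from the array median (log2) of the members of each complex on each array, by genotype label, with the mean and SD of 3 arrays. For all members the arrays labelled Foxp3Cre/+Lkb1f/f lie between 2.83 and 2.91, against 2.90 on each array labelled Foxp3Cre/+, and those labelled Foxp3CreTgfbr2 f/f lie between 2.95 and 2.99, against 2.95 and 3.04 at the ends of the range of those labelled Foxp3Cre.

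In complex I the flavoprotein and iron-sulfur core differed little between Foxp3Cre/+Lkb1f/f and Foxp3Cre/+ cells. *Ndufv1*, the FMN-bearing NADH-oxidising subunit, was at 3.16, 3.03 and 3.37, against 3.14, 3.26 and 3.48. *Ndufv2* differed by 0.05 ± 0.16 (SE), *Ndufs3* by -0.11 ± 0.18, *Ndufs7* by -0.03 ± 0.16 and *Ndufs8* by -0.11 ± 0.16. The accessory subunit *Ndufa12* had the lowest moderated statistic of the complex. It was at 3.08, 3.35 and 3.49 in Foxp3Cre/+Lkb1f/f cells, against 3.47, 3.59 and 3.63 in Foxp3Cre/+ cells, a difference of -0.26 ± 0.18 (SE, 0.84-fold, 95% confidence interval -0.68 to 0.16, adjusted p = 1), and the highest knockout array lay above the lowest control array. *Ndufs4*, an accessory subunit of the peripheral arm, had the highest statistic, at 4.47, 4.34 and 4.58, against 4.24, 4.42 and 4.53 (0.07 ± 0.17).

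Succinate dehydrogenase is the only complex with every subunit encoded in the nucleus, and all 4 of its genes were measured. *Sdha*, the flavoprotein, was at 3.26, 3.20 and 3.89 in Foxp3Cre/+Lkb1f/f cells, against 3.44, 3.40 and 3.95 in Foxp3Cre/+ cells (-0.15 ± 0.26, SE). The iron-sulfur subunit *Sdhb* was at 3.48, 3.52 and 3.44, against 3.40, 3.54 and 3.39. The membrane anchor *Sdhc* was at 1.29, 1.41 and 1.06, against 1.28, 1.63 and 1.14. The other anchor, *Sdhd*, was at 1.68, 1.72 and 2.23, against 1.99, 1.98 and 2.28, a difference of -0.21 ± 0.21. For *Sdha* and *Sdhd* each Foxp3Cre/+Lkb1f/f array lay below the control arrays of its own intensity set. Within the lower-intensity arrays alone the differences were -0.19 and -0.28, and neither gene passed the test when the set was fitted as a block in limma (adjusted p = 1 for both). The position below the controls of the same set was not particular to complex II, as *Ndufa12* of complex I had it too. How often it held over all transcript clusters was not counted.

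In complex III the electron-carrying subunits were close to level. *Cyc1*, cytochrome c1, was at 4.04, 4.10 and 4.04 in Foxp3Cre/+Lkb1f/f cells, against 3.92, 4.25 and 3.94 in Foxp3Cre/+ cells. The Rieske iron-sulfur protein *Uqcrfs1* differed by -0.08 ± 0.16 (SE) and the core protein *Uqcrc1* by -0.05 ± 0.16. The lowest statistic belonged to the pseudogene *Uqcrh-ps1* (-0.15 ± 0.20), which lay below the array median on every array.

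Complex IV carries tissue-restricted isoforms beside the common ones. Of the common ones, *Cox4i1* was at 5.90, 5.82 and 5.57, against 5.90, 5.91 and 5.70, *Cox5a* differed by -0.08 ± 0.21 (SE) and *Cox5b* by -0.06 ± 0.19, *Cox6a1* by -0.08 ± 0.15, *Cox6b1* by -0.04 ± 0.16, *Cox7a2* by -0.01 ± 0.19, *Cox7b* by 0.01 ± 0.15 and *Cox8a* by -0.08 ± 0.21. The striated muscle isoform *Cox6a2* had the highest statistic of the complex, at 0.87, 0.67 and 0.92 in Foxp3Cre/+Lkb1f/f cells, against 0.40, 0.20 and 1.01 in Foxp3Cre/+ cells (0.29 ± 0.24). It was higher on both lower-intensity arrays and not on the higher-intensity one, where the difference was -0.08. Another muscle isoform, *Cox7a1*, had the lowest, at -0.05, 0.47 and 0.42, against 0.57, 0.44 and 0.39. The lung isoform *Cox4i2*, the muscle isoform *Cox8b* and the testis isoforms *Cox7b2* and *Cox8c* averaged below the array median, and their differences lay between -0.01 and 0.13. The testis isoform *Cox6b2* differed by -0.14 ± 0.19 and *Cox7a2l*, which takes part in supercomplex assembly, by 0.02 ± 0.33.

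In complex V the genes of the catalytic head lay close to their controls. *Atp5a1*, the α subunit, was at 5.56, 5.61 and 5.36 in Foxp3Cre/+Lkb1f/f cells, against 5.50, 5.57 and 5.45 in Foxp3Cre/+ cells. *Atp5b*, the catalytic β subunit, was at 5.96, 5.98 and 5.98, against 5.93, 6.04 and 6.04, and its 95% confidence interval ran from -0.39 to 0.33. *Atp5c1*, the γ subunit of the rotor, differed by 0.00 ± 0.16 (SE). The 3 genes for the same mature c subunit, *Atp5g1*, *Atp5g2* and *Atp5g3*, differed by -0.07 ± 0.20, -0.09 ± 0.16 and -0.03 ± 0.17. *Atp5j2*, subunit f, had the lowest statistic (-0.12 ± 0.21), with -0.31 among lower-intensity arrays and 0.28 for the higher-intensity pair, and the pseudogene *Atp5c1-ps* the highest (0.26 ± 0.17).

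No member was called in Foxp3CreTgfbr2 f/f Treg cells either. Of the 81 members, 44 (54.3%) had a lower mean than in Foxp3Cre cells and 37 a higher one. Lower means held for 46.9% of all transcript clusters and 44% of those lying 2 or more above the array median. Over all members the median difference was -0.01, against 0.01 over all transcript clusters and 0.02 over those lying 2 or more above the array median. The median difference was -0.03 for complex I, -0.002 for complex II, 0.02 for complex III, 0.01 for complex IV and -0.01 for complex V. By limma at an adjusted p under 0.05 the calls covered 0 of 81 members and 0% of all transcript clusters, and at an unadjusted p under 0.05 they covered 0 of 81 members and 1.71% of all transcript clusters. None of the 81 differed by 1.5-fold or more, against 0.692% of all transcript clusters that were lower by that much and 1.49% that were higher. The median half-width of the 95% confidence interval was 0.33, and for 72 of 81 members the interval lay inside a 1.5-fold change. The median was 0.004 among the lower-intensity arrays, with 40 of 81 lower, and between the higher-intensity pair it was -0.07 with 55 lower.

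Groups did not overlap for 3 members. *Ndufb3*, an accessory subunit of the membrane arm of complex I, was at 3.10, 3.19 and 3.05 in Foxp3CreTgfbr2 f/f cells, against 3.25, 3.25 and 3.38 in Foxp3Cre cells (-0.18 ± 0.13, SE, adjusted p = 1). *Ndufa12* was at 3.43, 3.48 and 3.36, against 3.58, 3.55 and 3.66 (-0.17 ± 0.12, adjusted p = 1). Both were lower in all 3 arrays, and non-overlap in this direction held for 2.13% of all transcript clusters. *Atp5a1* was at 5.69, 5.67 and 5.75, against 5.63, 5.59 and 5.66 (0.08 ± 0.12), in the direction in which 2.81% did not overlap. With 3 arrays against 3 the smallest two-sided exact permutation p is 0.1, which these 3 members had.

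In the Foxp3Cre/+Lkb1f/f comparison *Ndufb3* was at 3.30, 2.54 and 2.95, against 3.23, 3.10 and 3.12, and the groups overlapped. The second row for *Ndufa12* differed by -0.15 ± 0.24 (SE) in Foxp3Cre/+Lkb1f/f cells and by 0.11 ± 0.19 in Foxp3CreTgfbr2 f/f cells, so the rows disagreed in direction in the second comparison. Of the other genes with 2 rows, the rows also differed in sign in at least 1 comparison for *Atp5d*, *Atp5e*, *Atp5g2*, *Atp5h*, *Cox7b*, *Ndufa11* and *Ndufa8*, and for *Cox5b* they did not.

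**Figure D3:**
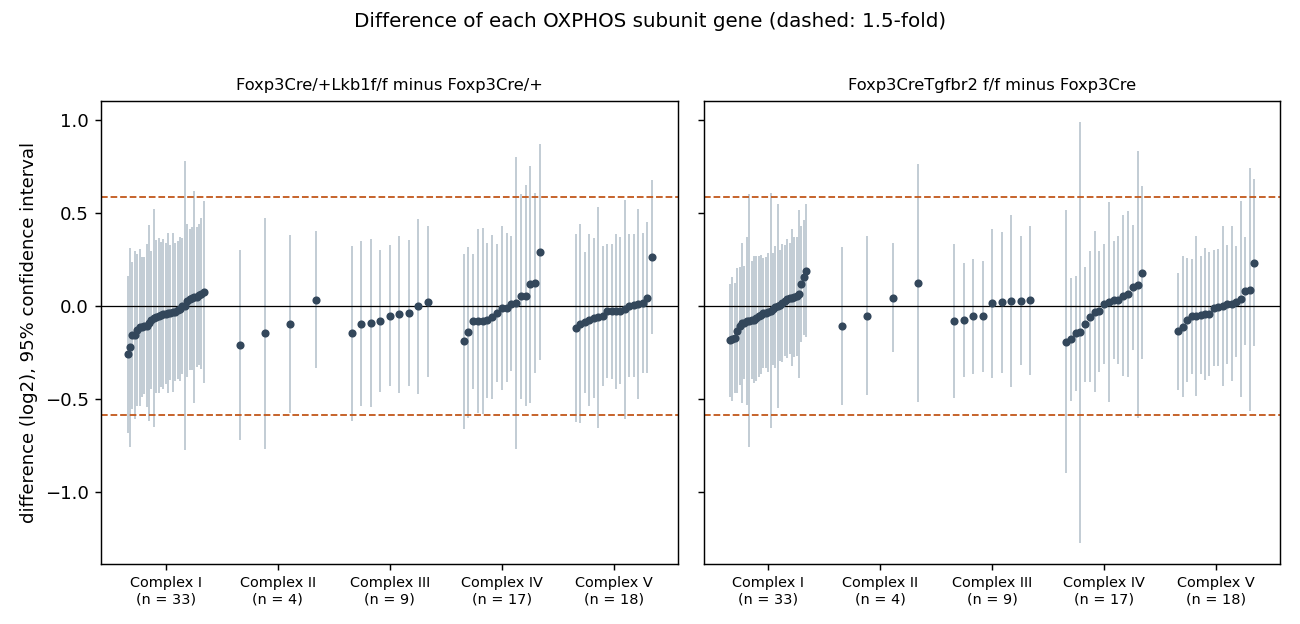
Difference (log2) of each of the 81 members with its 95% confidence interval, by complex, for Foxp3Cre/+Lkb1f/f minus Foxp3Cre/+ (left) and Foxp3CreTgfbr2 f/f minus Foxp3Cre (right). All points lie inside the dashed 1.5-fold lines, and the interval lies wholly inside them for 58 members on the left and 72 on the right.

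The core members had no call in Foxp3CreTgfbr2 f/f cells, and several had the opposite sign from the Lkb1 comparison. *Ndufv1* differed by 0.00 ± 0.23 (SE), *Ndufv2* by -0.09 ± 0.13, *Ndufs3* by 0.04 ± 0.13, *Ndufs7* by -0.04 ± 0.12 and *Ndufs8* by -0.04 ± 0.13. *Sdha* had the highest statistic of complex II, at 4.31, 3.65 and 3.82 in Foxp3CreTgfbr2 f/f cells, against 3.45, 3.68 and 4.28 in Foxp3Cre cells (0.12 ± 0.27), and *Sdhc* the lowest (-0.11 ± 0.18). The arrays at 4.31 and 4.28 were the higher-intensity ones. *Cyc1* differed by -0.06 ± 0.13, *Uqcrfs1* by 0.02 ± 0.17 and *Uqcrc1* by 0.02 ± 0.16, and the small subunits *Uqcrq* and *Uqcrh*, at the ends of complex III, by -0.07 ± 0.13 and 0.03 ± 0.15.

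In complex IV *Cox6b1* had the lowest statistic, at 3.43, 3.74 and 3.64 in Foxp3CreTgfbr2 f/f cells, against 3.74, 3.82 and 3.79 in Foxp3Cre cells (-0.18 ± 0.14, SE), with 1 array of each group at 3.74. *Cox5a* differed by -0.15 ± 0.13, *Cox4i1* by 0.03 ± 0.13 and *Cox5b* by -0.06 ± 0.15. *Cox6a2* had the highest statistic (0.18 ± 0.20). *Ndufa4*, named for complex I but known as a complex IV protein, differed by -0.13 ± 0.14, and its hypoxia-linked relative *Ndufa4l2* by 0.12 ± 0.13. In complex V *Atp5b* differed by 0.01 ± 0.14 and *Atp5c1* by -0.01 ± 0.13. *Atp5k*, subunit e, had the lowest statistic (-0.13 ± 0.13) and *Atp5j2* the highest (0.23 ± 0.19).

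No member was called as responding differently to the 2 knockouts. In the test of the difference between the 2 knockout effects, limma over 12 arrays called 0 of 81 members and 0% of all transcript clusters, and at an unadjusted p under 0.05 it called 0 of 81 and 0.982%. The lowest statistic belonged to *Ndufs5* (-0.30 ± 0.19, SE), at -0.36, -0.24 and -0.20 in Foxp3Cre/+Lkb1f/f cells, against -0.15, -0.11 and -0.22 in Foxp3Cre/+ cells, and at -0.07, -0.06 and -0.39 in Foxp3CreTgfbr2 f/f cells, against -0.44, -0.37 and -0.27 in Foxp3Cre cells. All 12 values lay below the array median.

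A steadier division ran between the labels of the 2 experiments, and it was looked at after the values were seen. Over all members the 6 arrays labelled Foxp3CreTgfbr2 f/f or Foxp3Cre averaged 2.95 to 3.04, against 2.83 to 2.91 on the 6 labelled Foxp3Cre/+Lkb1f/f or Foxp3Cre/+, and the ranges did not meet. With knockout status and intensity set as terms, 69 of 81 members were higher in the Tgfbr2-labelled arrays, with a median difference of 0.11, and complex II had the largest median, 0.18. Of transcript clusters lying 2 or more above the array median, 6144 of 7987 were higher, with a median difference of 0.11 as well. Their median was 0.16 within the lower-intensity arrays and 0.01 within the higher-intensity arrays. Of mitochondrial ribosomal protein genes 68 of 71 were higher (median 0.15), and of cytosolic ones 51 of 68 (median 0.05). Over all 12 arrays the shift was therefore not particular to the subunit genes. Within the higher-intensity arrays 66 of 81 members were higher (median 0.13). There 46 of 71 mitochondrial (median 0.06) and 40 of 68 cytosolic ribosomal protein genes (median 0.02) were higher. Of carriers, channels and ubiquinone enzymes, 12 of 18 were higher there (median 0.14). None of the 81 was called by limma, against 0.0145% of all transcript clusters called higher and 0.36% called lower.

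*Sdha* had the largest difference and the lowest p of the members. It averaged 3.86 ± 0.36 in the Tgfbr2-labelled arrays and 3.52 ± 0.32 in the Lkb1-labelled arrays (SD, n = 6 each), a difference of 0.34 ± 0.08 (SE, adjusted p = 0.115 by limma). *Ndufs4* had the next lowest p, with 4.66 ± 0.06 against 4.43 ± 0.12 (0.23 ± 0.06, adjusted p = 0.174). The 6 arrays did not overlap with the other 6 for 3 members, *Ndufs4*, *Ndufb9* and *Sdhb*, all higher in the Tgfbr2-labelled arrays, against 0.29% of all transcript clusters in that direction, and for 0 members in the other, against 0.225%. The median difference was 0.09 within the lower-intensity arrays and 0.13 within the higher-intensity arrays, where the sex-linked genes ran the other way, with 66 of 81 members higher in each. The labels also differed in the *Foxp3* alleles and in experiment, which cannot be told apart. Foxp3Cre/+ is a genotype of females, as *Foxp3* is X-linked. The *Foxp3* alleles on the higher-intensity arrays are therefore not known from the labels. All 16 macrophage and monocyte markers were lower in the Tgfbr2-labelled arrays, whose means over the list were -0.12 to 0.39, against 0.39 to 3.23 in the Lkb1-labelled arrays, and all 9 B cell markers measured were lower too, at -0.54 to -0.22, against -0.64 to 1.57. The B cell means of 0.78 and 1.57 were those of the higher-intensity Lkb1-labelled arrays. Within the lower-intensity arrays 3 of the 9 B cell markers were higher (median difference -0.12), against 0 within the higher-intensity arrays (median -1.23). The part of these other cells in the difference between the labels was not tested.

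The widest differences among the members followed the intensity set and not the genotype. With genotype as a term, 12 members were higher and 11 lower in the higher-intensity arrays at an adjusted p under 0.05 (limma), against 17.8% and 18.7% of all transcript clusters, in a comparison added after the values were seen. The higher-intensity array lay above both others in all 4 genotypes for 14 members and below both in all 4 for 19. No such count was made over all transcript clusters, so it does not set the members apart from them. After quantile normalization 6 members were called higher and 11 lower, and of the genes named as called below *Ndufv1*, *Uqcrc2*, *Cox7a2l* and *Atp5l* no longer passed (adjusted p = 0.0561, 0.0903, 0.0625 and 0.139). The genes named in the next sentences were chosen for these values.

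Among these chosen genes, subunits of 1 complex moved in opposite directions. Calls in both directions were also frequent over all transcript clusters (17.8% higher and 18.7% lower). Whether the division was particular to the complexes was not tested. *Sdha* was at 4.31, 4.28, 3.89 and 3.95 on the higher-intensity arrays, against 3.20 to 3.82 on the lower-intensity ones (0.62 ± 0.08, SE, adjusted p = 0.000515), and *Sdhd* was also higher (0.38 ± 0.08, adjusted p = 0.00436), whereas *Sdhc* was lower, at 1.06 to 1.28, against 1.28 to 1.71 (-0.33 ± 0.08, adjusted p = 0.0137). *Sdhb* did not pass the test (-0.05 ± 0.07). In complex I the iron-sulfur subunit *Ndufs1* was higher (0.68 ± 0.11, adjusted p = 0.00159) and *Ndufa1* was lower (-0.48 ± 0.07, adjusted p = 0.000875). *Ndufv1* was higher by 0.41 ± 0.08 (adjusted p = 0.0041), and the complex III core protein *Uqcrc2* by 0.32 ± 0.07 (adjusted p = 0.00525). In complex IV *Cox8a* was lower, at 4.12 to 4.28, against 4.44 to 4.71 (adjusted p = 0.00161), and *Cox7a2l* was higher (0.61 ± 0.18, adjusted p = 0.0243). In complex V *Atp5l*, subunit g, was lower, at 6.38 to 6.54, against 6.78 to 6.91 (adjusted p = 0.00198), and *Atp5d*, the δ subunit, had the lowest difference of all, -0.57 ± 0.10 (adjusted p = 0.00305).

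The shift differed between bands of mean level. Of the 30 members averaging more than 4 above the array median, 22 were lower in the higher-intensity arrays (median difference -0.10), and 9 of the 11 called lower were among them. Of the 30 averaging 2 to 4 above it, 18 were higher (median 0.03), but after quantile normalization 21 were lower (median -0.11). The median was 0.19 for the 12 members up to 2 above the array median and 0.06 for the 9 below it. Across the 81 members Pearson's r between the mean and the shift was -0.41, as a description over rows that share the same 12 arrays. The range of the shift, -0.57 to 0.68, was wider than the range of the differences between genotypes, -0.26 to 0.29 in Foxp3Cre/+Lkb1f/f cells and -0.19 to 0.23 in Foxp3CreTgfbr2 f/f cells.

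**Figure D4:**
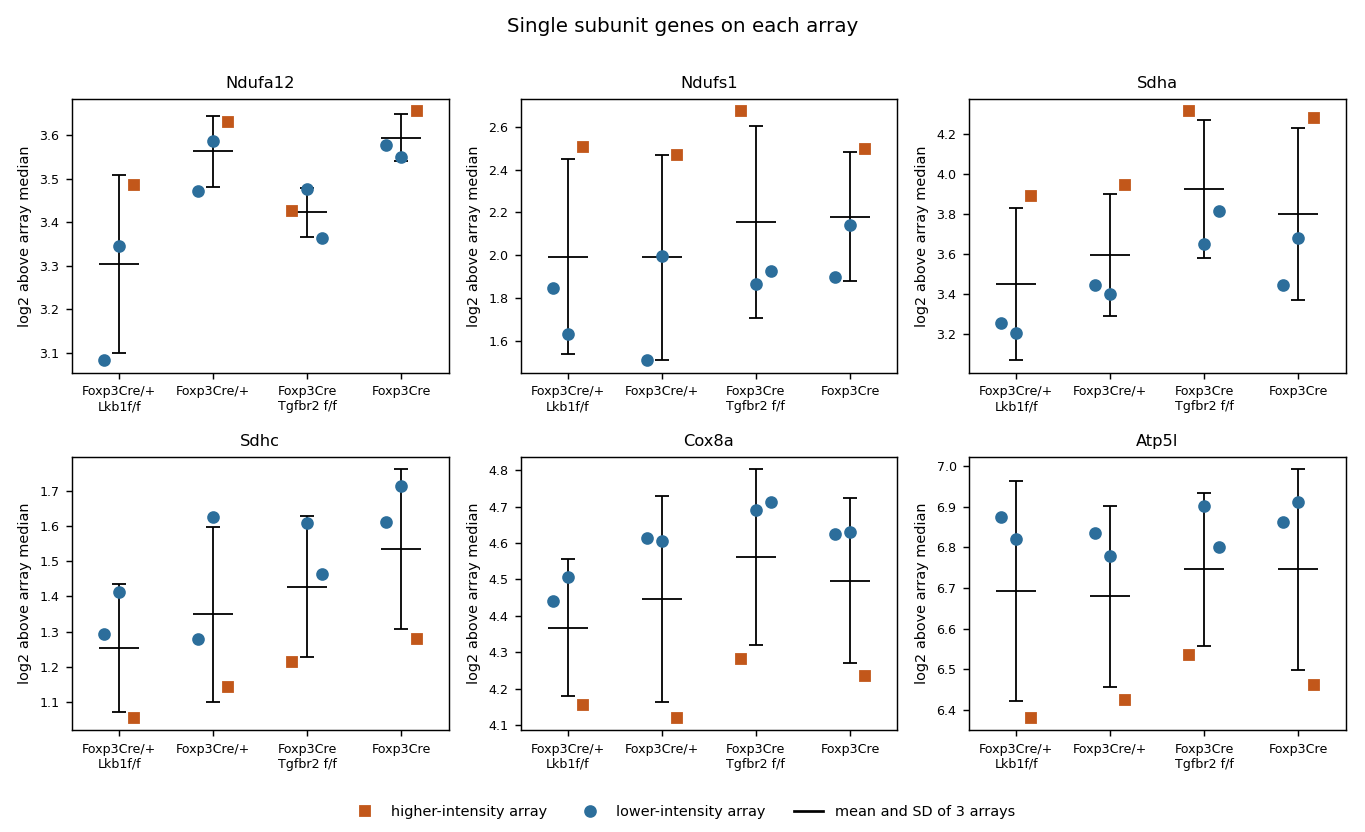
Distance from the array median (log2) of 6 members on each array, by genotype label, with the mean and SD of 3 arrays. The higher-intensity square lies above the circles of its genotype for *Ndufs1* and *Sdha* and below them for *Sdhc*, *Cox8a* and *Atp5l* in all 4 genotypes, whereas for *Ndufa12* the 3 Foxp3CreTgfbr2 f/f arrays lie below the 3 Foxp3Cre arrays.

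**Figure D5:**
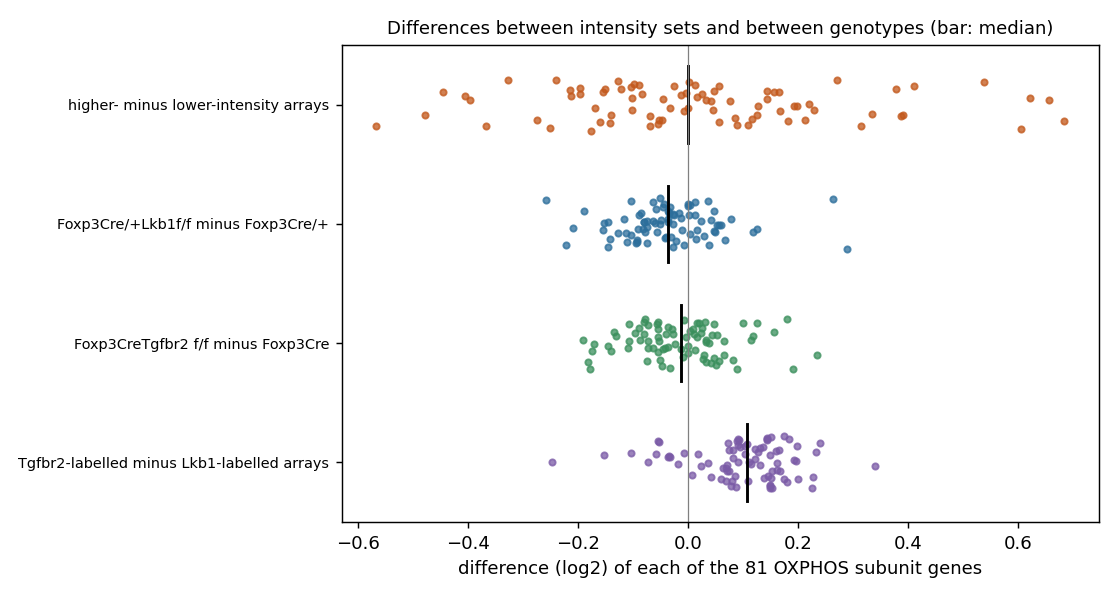
Difference (log2) of each of the 81 members between intensity sets, in each knockout comparison and between the arrays of the 2 experiments, with a bar at the median. The points between intensity sets spread from -0.57 to 0.68, and those between the arrays of the 2 experiments centre at 0.11.

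The genes that build and serve the complexes gave no call in either knockout. Of 47 assembly factors listed, 44 were measured, of which 30 had a lower mean in Foxp3Cre/+Lkb1f/f than in Foxp3Cre/+ cells (median -0.07) and 26 in Foxp3CreTgfbr2 f/f than in Foxp3Cre cells (median -0.02). Among lower-intensity arrays the assembly factor median was -0.10 with 30 lower for Lkb1, and for Tgfbr2 it turned to 0.05 with 14 lower, against -0.01 with 23 lower and -0.09 with 32 lower for the higher-intensity pairs. The lowest and highest statistics of this list belonged to *Ecsit* (-0.31 ± 0.15, SE) and *Ndufaf2* (0.18 ± 0.19), both complex I assembly factors, in the first comparison, and the complex IV factor *Cox20* (-0.25 ± 0.13) and the complex I factor *Ndufaf7* (0.20 ± 0.13) in the second. Among 18 of 20 carriers, channels and ubiquinone enzymes measured, 16 had a lower mean in Foxp3Cre/+Lkb1f/f cells (median -0.11) and 7 in Foxp3CreTgfbr2 f/f cells (median 0.02). Among lower-intensity arrays these medians were -0.16 and 0.05, and for the higher-intensity pairs they were -0.06 and -0.09. The ubiquinone enzyme *Coq3* had the lowest statistic (-0.35 ± 0.24) and *Cycs*, cytochrome c, the highest (0.07 ± 0.20) of the first comparison. *Vdac3*, an outer membrane channel, had the lowest statistic (-0.25 ± 0.18) and the ubiquinone enzyme *Pdss2* the highest (0.30 ± 0.16) of the second.

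Of 21 regulators of mitochondrial gene expression, 20 were measured, and 18 had a lower mean in Foxp3Cre/+Lkb1f/f cells (median -0.12), with -0.11 and again 18 lower among the lower-intensity arrays, against -0.06 and 13 lower for the higher-intensity pair. Over the list the Foxp3Cre/+Lkb1f/f arrays averaged 1.65, 1.41 and 1.91, against 1.63, 1.75 and 1.98 for Foxp3Cre/+. Of the lower-intensity knockout arrays only the second thus averaged below both controls of its set. The mitochondrial transcription factor *Tfb2m* had the lowest statistic (-0.30 ± 0.25, SE) and the coactivator *Ppargc1a* the highest (0.07 ± 0.16). *Tfb2m* was at 2.07, 1.16 and 1.64 in Foxp3Cre/+Lkb1f/f cells, against 1.99, 1.98 and 1.80 in Foxp3Cre/+ cells. In this Lkb1 comparison 53.1% of all transcript clusters were lower, and 68.5% of those lying 2 or more above the array median (median -0.06). Among lower-intensity arrays 5348 of 7987 of the latter were lower (median -0.07). These shares apply to the assembly factors and carriers as well. In Foxp3CreTgfbr2 f/f cells 11 of the 20 were lower (median -0.02). The direction differed between the sets, with a median of 0.03 and 7 lower among lower-intensity arrays and of -0.10 and 13 lower for the higher-intensity pair. The coactivator *Pprc1* had the lowest statistic (-0.19 ± 0.23) and *Ssbp1*, which binds single-stranded mitochondrial DNA, the highest (0.24 ± 0.15). No gene of these lists had an adjusted p under 0.05.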

How the data were processed

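CD4+YFP+ Treg cell RNA was hybridised to Mouse Genome 2.0 arrays (Affymetrix) and processed by the authors, per the labels and methods, with Agilent Genespring GS 11. The deposited values are on the log2 scale, and how they were summarised and normalized is not stated in those sources. Of 41345 transcript clusters, 23521 carried 1 symbol in GEO's platform annotation, 1820 several and 16004 none.

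Each array was centred on its own median. Comparisons used lmFit and eBayes of limma 3.58.1 (R 4.3.3) on the 6 arrays of each pair and on all 12 for differences between effects, with p-values adjusted over all transcript clusters and called under 0.05. Intensity sets were divided at a median of 6. The script was tested on simulated data. No signal-over-background call was used here. The number of arrays limits precision.

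Same-numbered Lkb1-labelled arrays deviated together (r = 0.39, 0.30 and 0.74), with both higher-intensity arrays numbered 3. Differently numbered lower-intensity arrays of the knockout and control also had positive r (0.45 and 0.11). No pairing by number can therefore be read from the data, and the labels state none. Named genes were core subunits, isoform families and, for each comparison, complex and list, the lowest and highest moderated statistic. Members, lists and tests were chosen with earlier results of these data known.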

Additional observations from a re-analysis of the deposited data

How the results depend on the processing

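Calls were 0 in both knockout comparisons and in the difference between them on the values as deposited, after quantile normalization, with the intensity set as a block, within the lower-intensity arrays and leaving out any 1 array. In the knockout comparisons they were also 0 with a filter on low values, a trended robust prior, array weights and the methods' t-test after adjustment. At an unadjusted p under 0.05 the methods' t-test passed 675 transcript clusters and 0 members for Lkb1, and 902 and 2 for Tgfbr2. With the replicate number as a block (paired arrays) calls stayed at 0, and the medians, -0.04 and -0.01, were those of the unpaired fit. Same-numbered Tgfbr2-labelled arrays did not deviate together (r = -0.52, 0.23 and -0.57). The higher-intensity pair, knockout array 1 and control array 3, did (r = 0.72).

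The Lkb1 median became -0.00197 on values as deposited and 0.00596 after quantile normalization, which left 35 members lower. The Tgfbr2 median between the higher-intensity arrays was -0.0668. Leaving out 1 array, the medians ran from -0.06 to -0.01 for Lkb1 and from -0.03 to 0.02 for Tgfbr2, where the value without the third Foxp3Cre array was the positive one, and 45 to 65 and 38 to 53 members were lower. Of 1486 values of 47 named members under alternatives, 2 larger than their SE changed sign, both between the higher-intensity Lkb1 arrays, *Cox6a2* (-0.0807) and *Atp5c1-ps* (-0.0255), and 196 smaller ones did. The cause was not tested.

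For the Tgfbr2-labelled minus Lkb1-labelled arrays, 155 transcript clusters were called, with 2 without the intensity term, 74 after quantile normalization, 343 within the lower-intensity arrays and 5 to 288 leaving out 1 array (152 without the third Foxp3Cre array, and over 1.5 times more or fewer without any other). No member was called under any of these, and the median was 0.0653 after quantile normalization and 0.09 to 0.12 leaving out 1 array. In the same way 6 members, not 12, were called higher between intensity sets after quantile normalization. Every comparison rests on 3 arrays a genotype, of which 1 goes against its label in sex-linked genes.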

Other observations

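Ribosomal protein genes were read the same way as the subunit genes. In Foxp3Cre/+Lkb1f/f cells 47 of 71 mitochondrial ribosomal protein genes had a lower mean than in Foxp3Cre/+ cells (median -0.04, and -0.05 with 44 lower among lower-intensity arrays). *Mrps36* had the lowest statistic (-0.35 ± 0.16, SE) and *Mrps2* the highest (0.14 ± 0.18). In Foxp3CreTgfbr2 f/f cells 49 of 71 had a lower mean than in Foxp3Cre cells (median -0.04), but 36 among lower-intensity arrays (median -0.002) and 59 for the higher-intensity pair (median -0.13). *Mrps21* had the lowest statistic (-0.26 ± 0.17) and *Mrps10* the highest (0.28 ± 0.14). Of 68 cytosolic ribosomal protein genes, 45 and 52 were lower (medians -0.03 and -0.03). Among lower-intensity arrays 31 and 37 were lower (medians 0.01 and -0.01), and *Rps15*, a protein of the small subunit, had the highest statistic in both comparisons (0.67 ± 0.24 and 0.51 ± 0.34). None had an adjusted p under 0.05 by limma.

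Oxidant defence genes gave no call either. *Gpx1*, a cytosolic and mitochondrial glutathione peroxidase, had the lowest statistic of 9 measured genes in both comparisons (-0.34 ± 0.19, SE, in Foxp3Cre/+Lkb1f/f cells and -0.09 ± 0.12 in Foxp3CreTgfbr2 f/f cells), and *Gpx4*, which reduces lipid peroxides, the highest (0.06 ± 0.17 and 0.19 ± 0.18). Between the higher-intensity Lkb1 arrays the *Gpx1* difference was 0.00, against -0.52 within the lower-intensity arrays.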
